A study of Mus musculus with 45 samples.

Results

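The transcripts of 32 genes for chaperones of the endoplasmic reticulum (ER) and for the unfolded protein response were followed through cultures of mouse follicular B cells. The members were a fixed list of symbols taken from the 30317 symbols of the deposited table. The rule itself uses no measured value, but the list was chosen with earlier results of these data known. Counts of members beside shares of all genes are therefore a description. All 32 symbols were found, and all 32 passed the filter on low values, which kept 15614 symbols for testing. By role the list held 9 chaperones and their partners, 2 lectin chaperones, 7 protein disulfide isomerases, 3 prolyl isomerases, 9 genes of ER-associated degradation and 2 sensors.

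The cells were splenic follicular B cells of B6.Blimp1GFP/+ mice, so every group carried GFP in 1 allele of Blimp1, the gene (Prdm1) that drives plasma cell formation. They were grown on OP9-DL1, a bone marrow stroma that displays Delta-like 1, a Notch ligand, or on plain OP9 stroma, and are called DL1 and OP9 cells. Stimulated cultures held LPS, a bacterial lipopolysaccharide sensed by Toll-like receptor 4, or anti-IgM F(ab')2, which crosslinks the B cell receptor, each at 10 µg/mL. There were 15 groups of 3 libraries. The 15 were Blimp1+ cells, sorted out of LPS-treated DL1 cultures, then DL1 and OP9 cells under LPS or under anti-IgM, taken at 20, 44 and 68 h, and finally unstimulated DL1 and OP9 cells, taken at 68 h only. Except for the Blimp1+ sort, cells were sorted for viability only, and the labels give no time for the Blimp1+ sort. No label states that replicates came from separate animals or cultures, so each p-value measures the spread between these samples, which may be technical.

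Secretory and membrane proteins fold in the ER, where the Hsp70 chaperone BiP (Hspa5) and its J-domain partners bind unfolded chains, lectin chaperones hold glycoproteins, and disulfide and prolyl isomerases set bonds and turns. Proteins that fail to fold are trimmed by EDEM proteins, moved out through derlins, Sel1l and the ubiquitin ligase Syvn1, and degraded in the cytosol. When unfolded protein builds up, the sensors IRE1α (Ern1), ATF6 and PERK (Eif2ak3) respond, and IRE1α and ATF6 raise the folding capacity of the ER. IRE1α does so by splicing the mRNA of Xbp1, a transcription factor that plasma cells need to secrete antibody.

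The ER stress response element is the DNA sequence through which ATF6 and XBP1, together with NF-Y, are known to act on chaperone genes, and it is shown because several members carry it. The RefSeq promoters of GRCm38.p6, from 250 bases before to 50 bases after each gene's start, were searched on both strands. They held 28 of the 32 members. Atf6, Manf, Hyou1 and Derl1 were not matched. The element, CCAAT and CCACG with any 9 bases between them, was present in 9 of the 28 members (32.1%) and in 37 of all 27025 genes with a promoter (0.137%). Each occurrence is written 5′ to 3′ in the direction in which the element reads, with its fixed bases in capitals, and Hsp90b1 held a pair.
Calr, chr8:84847075-84847093: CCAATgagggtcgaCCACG
Canx, chr11:50325800-50325818: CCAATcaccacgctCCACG
Creld2, chr15:88819520-88819538: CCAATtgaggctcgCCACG
Derl3, chr10:75893242-75893260: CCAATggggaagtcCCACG
Dnajc3, chr14:118937827-118937845: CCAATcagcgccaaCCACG
Hsp90b1, chr10:86705533-86705551: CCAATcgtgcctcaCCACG
Hsp90b1, chr10:86705638-86705656: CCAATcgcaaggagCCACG
Hspa5, chr2:34772025-34772043: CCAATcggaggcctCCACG
Pdia6, chr12:17266491-17266509: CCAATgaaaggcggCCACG
Syvn1, chr19:6046532-6046550: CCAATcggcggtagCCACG

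The second form, ATTGG and CCACG with any 1 base between them, was found in 2 of the 28 members and in 12 of 27025 genes (0.0444%). It shares no site with the first form, and its fixed bases are again in capitals.
Dnajb11, chr16:22857852-22857862: ATTGGcCCACG
Herpud1, chr8:94386377-94386387: ATTGGgCCACG

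Either form was present in 11 of 28 members (39.3%), against 0.181% of all genes. The core of another element, TGACGTG, was found in Hspa5, Txndc5, Txndc11 and Fkbp11 (14.3% of the 28), against 2.22% of all genes. A match describes the letters of the promoter and does not show that a factor was bound. The 250 bases before the start site are given for Hspa5, for Derl3, the member with the largest difference in the Blimp1+ comparison at 44 h, and for Herpud1, a member whose level split the libraries. All are on the plus strand and written 5′ to 3′, with the fixed bases of each full element in capitals. In Derl3 the element lies on the opposite strand and therefore reads as its reverse complement.
Hspa5, chr2:34771840-34772089: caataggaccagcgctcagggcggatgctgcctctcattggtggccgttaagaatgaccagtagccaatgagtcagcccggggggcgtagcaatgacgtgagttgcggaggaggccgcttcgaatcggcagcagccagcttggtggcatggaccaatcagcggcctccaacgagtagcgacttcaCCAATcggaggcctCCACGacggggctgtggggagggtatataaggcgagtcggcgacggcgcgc
Derl3, chr10:75893148-75893397: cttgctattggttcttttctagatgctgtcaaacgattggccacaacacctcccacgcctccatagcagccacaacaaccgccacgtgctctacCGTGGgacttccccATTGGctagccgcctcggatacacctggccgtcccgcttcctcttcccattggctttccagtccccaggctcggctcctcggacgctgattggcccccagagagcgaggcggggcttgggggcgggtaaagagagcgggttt
Herpud1, chr8:94386179-94386428: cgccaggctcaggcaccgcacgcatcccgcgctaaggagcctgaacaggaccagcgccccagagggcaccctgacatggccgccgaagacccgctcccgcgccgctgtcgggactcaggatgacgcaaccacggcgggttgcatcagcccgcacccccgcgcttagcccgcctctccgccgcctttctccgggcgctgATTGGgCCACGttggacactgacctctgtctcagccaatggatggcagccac

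Depth, read from the deposited log2 table, ran from 3.07 to 29.1 M estimated reads per library, where M stands for 1000000. All values below are TPM (transcripts per 1000000, a level corrected for transcript length) divided by a size factor of the library, called scaled TPM. Before the results, 10 libraries must be set apart. In these Actb was 12355 to 85337 TPM, against 217 to 2974 TPM in the other 35. They comprised every library of 2 groups at 20 h, namely LPS-treated DL1 cells and anti-IgM-treated OP9 cells, and replicate 3 of the unstimulated OP9, OP9 LPS, DL1 LPS and OP9 anti-IgM groups at 68 h. They are called high-Actb libraries, and values without them are given beside the results they move most. The comparisons of DL1 with OP9 cells at 20 h have no such value, because a whole group would be left out. Stromal markers (12 genes such as Col1a1 and Dcn) made up between 0.112% and 1.54% of each unstimulated OP9 library's TPM, and between 0.00292% and 0.0394% elsewhere. None of 6 B cell markers was at 0 in any library. T cell, macrophage and neutrophil markers summed to at most 0.00204%, 0.0108% and 0.000686%. Dll1 itself was 0.550 to 41.0 TPM in DL1 libraries and 0 to 3.72 TPM in OP9 libraries.

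Together the 32 genes stood highest in Blimp1+ cells, where their scaled TPM summed to 15307, 15594 and 14551 in the 3 libraries. All 42 other libraries lay below these, between 3533 and 9855. In DL1 cells with LPS the group means were 8185, 6917 and 6629 at 20, 44 and 68 h, and in OP9 cells with LPS they were 4965, 6169 and 5441. Anti-IgM gave sums of 7667, 5771 and 5618 on DL1 stroma and of 6289, 4201 and 4692 on OP9 stroma, in the same order of times. At 20 h every library of DL1 cells with LPS and of OP9 cells with anti-IgM is high in Actb. As shares of deposited TPM, the mean sums of these groups were 0.706% and 0.491% at 20 h. At 44 h they were 0.716% and 0.538%, so the higher scaled sums at 20 h depend on the scaling. The lowest of the 15 means was that of unstimulated DL1 cells, 3651 ± 113 (SD, n = 3), against 7867 ± 2107 in unstimulated OP9 cells. Without their high-Actb library the means at 68 h were 5593 in DL1 cells with LPS, 5026 in OP9 cells with LPS, 4112 in OP9 cells with anti-IgM and 8971 in unstimulated OP9 cells, of 2 libraries each. The unstimulated OP9 libraries hold the most stromal markers (0.112% to 1.54% of TPM), and the part of stromal RNA in their sums was not tested. The order of neighbouring groups is a description, because many of them overlapped. Fewer cells of a type and less RNA per cell cannot be told apart in such bulk samples.

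**Figure D1:**
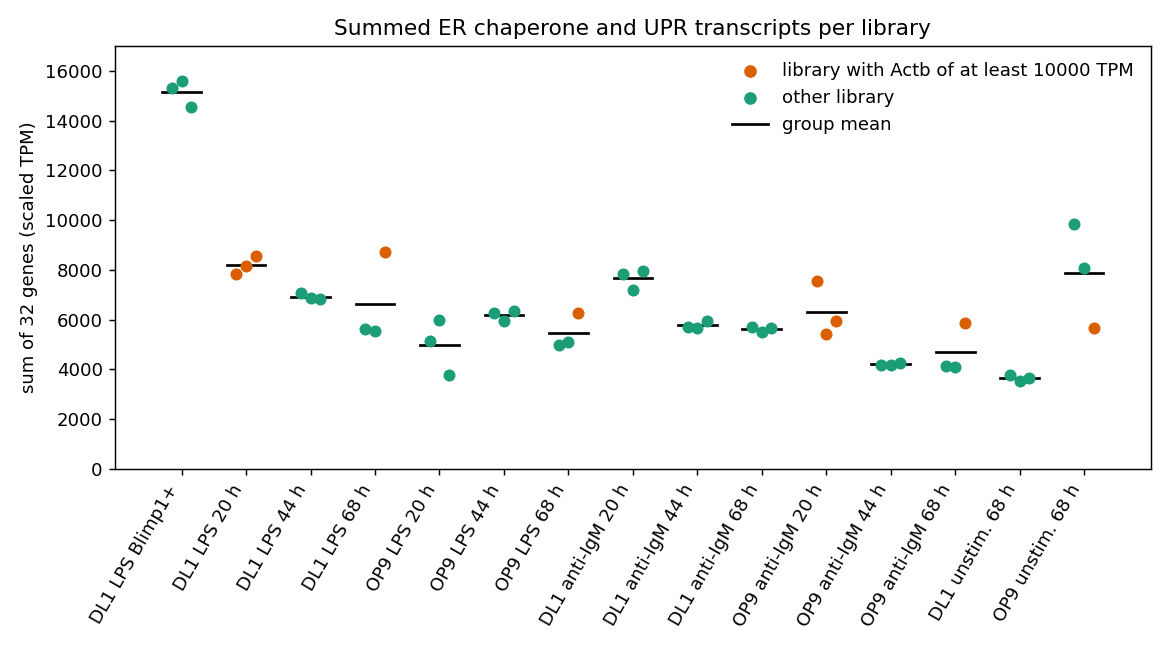
Sum of the scaled TPM of the 32 genes (vertical axis, from 0) in each of 45 libraries, by group. Points are libraries, orange where Actb reached 10000 TPM, and bars are group means. The 3 Blimp1+ libraries lie between 14551 and 15594, above every other library.

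By group mean, 22 of the 32 genes peaked in Blimp1+ cells. Another 5 peaked in unstimulated OP9 cells, 2 in DL1 cells with LPS at 20 h, 2 in DL1 cells with LPS at 68 h and 1 in anti-IgM-treated OP9 cells at 20 h. The pair that peaked at 68 h did so through the high-Actb replicate 3, since Herpud1 had 298, 324 and 3302 scaled TPM there and Atf6 had 24.2, 18.2 and 75.2. Without the high-Actb libraries 25 members peaked in Blimp1+ cells, these 2 among them. Of the others, 6 peaked in unstimulated OP9 cells and 1, Canx, in DL1 cells with anti-IgM at 20 h. This ranking lacks 2 whole groups at 20 h, whose libraries are all high in Actb. Manf, Creld2 and Canx had peaked in these groups, so their move was fixed in advance. Herpud1 also had a higher mean in 1 of them, anti-IgM-treated OP9 cells (940 scaled TPM), than in Blimp1+ cells (698). The counts of 22 and 25 are therefore not directly comparable. In the unstimulated OP9 libraries stromal markers made up 0.112% to 1.54% of TPM and B cell markers 0.0377% to 0.200%. The part of stromal RNA in the peaks there was not tested. The most abundant single value among Blimp1+ libraries was that of Hspa5, at 2421 scaled TPM. The scarcest members were Pdia5, with a median of 0.830 scaled TPM over all libraries and 3 libraries at 0, and Ern1, with a median of 1.38. Those of Edem3 and Hyou1 were 4.31 and 8.69.

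**Figure D2:**
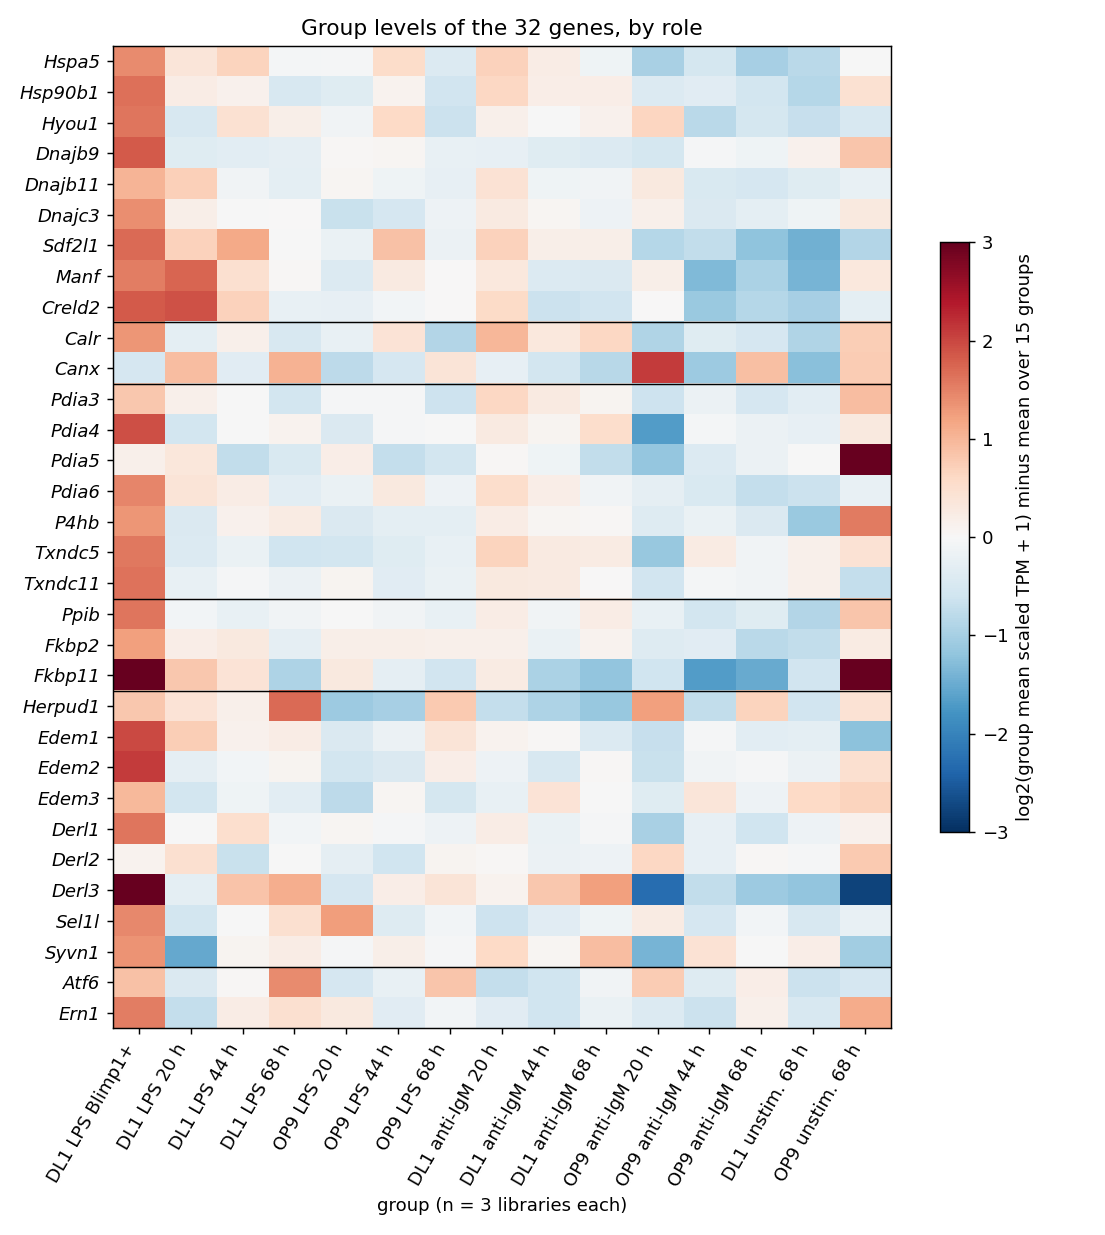
Level of each of the 32 genes (rows, grouped by role with lines between chaperones, lectin chaperones, disulfide isomerases, prolyl isomerases, degradation genes and sensors) in each of 15 groups of 3 libraries (columns). Colour is log2(group mean scaled TPM + 1) minus the gene's mean over the groups, red for higher, and saturates at 3 in either direction. The Blimp1+ column is red for most rows, and Canx, Pdia5 and Derl2 are among the rows that peak elsewhere.

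Blimp1+ cells from DL1 cultures with LPS were compared with all viable cells of DL1 cultures with LPS at 44 h. The labels give no time for the Blimp1+ sort. Blimp1 state, time in culture and the sort itself cannot be told apart here. The sort was visible in its own gene, since Prdm1 was 67.5, 82.7 and 76.8 scaled TPM in Blimp1+ cells, against 5.30, 3.01 and 3.22 in the 44 h cultures. Of the 32 members, 19 were higher in Blimp1+ cells and 0 lower at an adjusted p below 0.05 in limma, with Benjamini-Hochberg adjustment over 15614 genes. Over all genes 12% were called (7.02% higher and 5.03% lower). The median log2 fold change was 1.22 over the members, against 0.09 over all genes tested, and 31 of 32 members had all Blimp1+ libraries above all 44 h libraries, as did 28.4% of all genes. The exception was Canx. Immunoglobulin genes took 19.3% to 20.1% of TPM in Blimp1+ cells and 2.09% to 2.15% in the 44 h cultures, and with those genes removed 18 members were called. No high-Actb library is in either group, but all libraries share the estimate of spread, and without the 10 high-Actb libraries 30 members were called higher, as were 14.4% of all genes. With TPM as deposited 6 were called, against 8.94% of all genes, and the median of all genes then moved to -0.04.

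Among chaperones and their partners, 6 of 9 were higher. Hsp90b1, the ER form of Hsp90, had 1564, 1697 and 1512 scaled TPM in Blimp1+ cells and 599, 458 and 601 in the 44 h cultures. These groups stood far apart, and the log2 fold change was 1.53 ± 0.25 (SE, adjusted p = 2.7e-05). Dnajb9, a J-domain partner of BiP that helps to release misfolded protein, reached 42.4, 51.6 and 51.2 in Blimp1+ cells, against 9.87, 9.75 and 11.1 at 44 h. Every Blimp1+ library was above 40 and no 44 h library above 12, a log2 fold change of 2.13 ± 0.42 (adjusted p = 0.00042). The J-domain partners Dnajb11 and Dnajc3 were higher by 1.11 ± 0.20 and 1.41 ± 0.24. Manf and Creld2, 2 small secreted ER proteins, were higher by 1.05 ± 0.28 and 1.19 ± 0.25. In Creld2 1 culture library, at 325, lay well above the others, at 194 and 190, though still below all Blimp1+ libraries (528, 546 and 496).

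BiP itself was not called at 44 h. Hspa5 was 2421, 2407 and 2174 scaled TPM in Blimp1+ cells, against 1443, 1325 and 1372 in the cultures. The groups did not overlap, and the log2 fold change of 0.76 ± 0.45 had an adjusted p of 0.35. The same difference had an adjusted p of 0.017 when the high-Actb libraries were left out. Sdf2l1, a partner of BiP, likewise had 796, 789 and 780 in Blimp1+ cells and 544, 516 and 539 in the cultures, with 0.56 ± 0.39 (adjusted p = 0.47) and, without the high-Actb libraries, an adjusted p of 0.00093. Hyou1, an ER Hsp110 chaperone, differed by 1.25 ± 0.47 (adjusted p = 0.083).

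The isomerases held some of the largest differences. Fkbp11, a prolyl isomerase of secretory cells, was 188, 171 and 184 scaled TPM in Blimp1+ cells and 27.6, 23.6 and 26.3 in the 44 h cultures. The ratio of the means was 7.02 and the log2 fold change 2.77 ± 0.54 (adjusted p = 0.00041). Ppib (cyclophilin B) had 979, 976 and 1043 in Blimp1+ cells, against 292, 239 and 308 at 44 h. Both genes were tight within each group and far apart between them, and Ppib was higher by 1.84 ± 0.26 (adjusted p = 4.1e-06). Fkbp2, the remaining prolyl isomerase, differed by 0.92 ± 0.31 and was not called at an adjusted p of 0.05.

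Of the 7 disulfide isomerases 3 were called. Txndc11 was higher by 1.66 ± 0.30, Pdia6 by 1.25 ± 0.35 and P4hb, the founding member of the family, by 1.19 ± 0.34. Pdia4 had 1021, 991 and 830 in Blimp1+ cells, against 254, 224 and 258 in the cultures. Its groups were as clearly separated as those of the called members, and its log2 fold change of 1.94 ± 0.66 had an adjusted p of 0.051. Txndc5 (1.79 ± 0.72), Pdia3 (0.84 ± 0.51) and Pdia5 (0.89 ± 0.52) were not called either. The lectin chaperones parted, as Calr (calreticulin) was higher by 1.20 ± 0.40 (adjusted p = 0.045), whereas Canx (calnexin) had 287, 274 and 241 in Blimp1+ cells and 269, 343 and 288 in the cultures, with overlapping groups and a log2 fold change of -0.16 ± 0.75.

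Among degradation genes, 6 of 9 were higher. Derl3, the derlin typical of secretory cells, had 198, 196 and 227 scaled TPM in Blimp1+ cells, against 22.1, 16.7 and 19.8 in the 44 h cultures. It had the largest log2 fold change of the list, 3.35 ± 0.53 (adjusted p = 2.2e-05), and a ratio of means of 10.6. Its relatives differed less, with Derl1 higher by 1.10 ± 0.37 (adjusted p = 0.049) and Derl2 at 0.77 ± 0.32 (adjusted p = 0.13). Edem2, which starts the trimming of mannose from misfolded glycoproteins, had 261, 286 and 226 in Blimp1+ cells and 49.8, 63.5 and 52.9 in the cultures. It was higher by 2.20 ± 0.22 (adjusted p = 4.2e-09), the smallest adjusted p of the list. Edem1 was higher by 1.85 ± 0.39, Edem3 by 1.11 ± 0.36 and Sel1l, the scaffold of the ligase complex, by 1.44 ± 0.42. Syvn1, the ligase, differed by 1.26 ± 0.69 (adjusted p = 0.29) and Herpud1, a membrane protein that assembles the complex, by 0.70 ± 0.72 (adjusted p = 0.69).

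Of the sensors, Ern1 was 6.92, 7.19 and 5.91 scaled TPM in Blimp1+ cells and 2.27, 2.36 and 1.60 in the 44 h cultures. Its levels were low in both groups but did not overlap, and it was higher by 1.32 ± 0.36 (adjusted p = 0.012). Atf6 differed by 0.86 ± 0.44 (adjusted p = 0.26). Calls of Derl3, Dnajb9, Edem2, Fkbp11 and Ppib were kept in all 16 alternative settings and left-out libraries of this comparison. Calr, Edem3 and Derl1 were called in only 5, 5 and 4 of the 16.

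**Figure D3:**
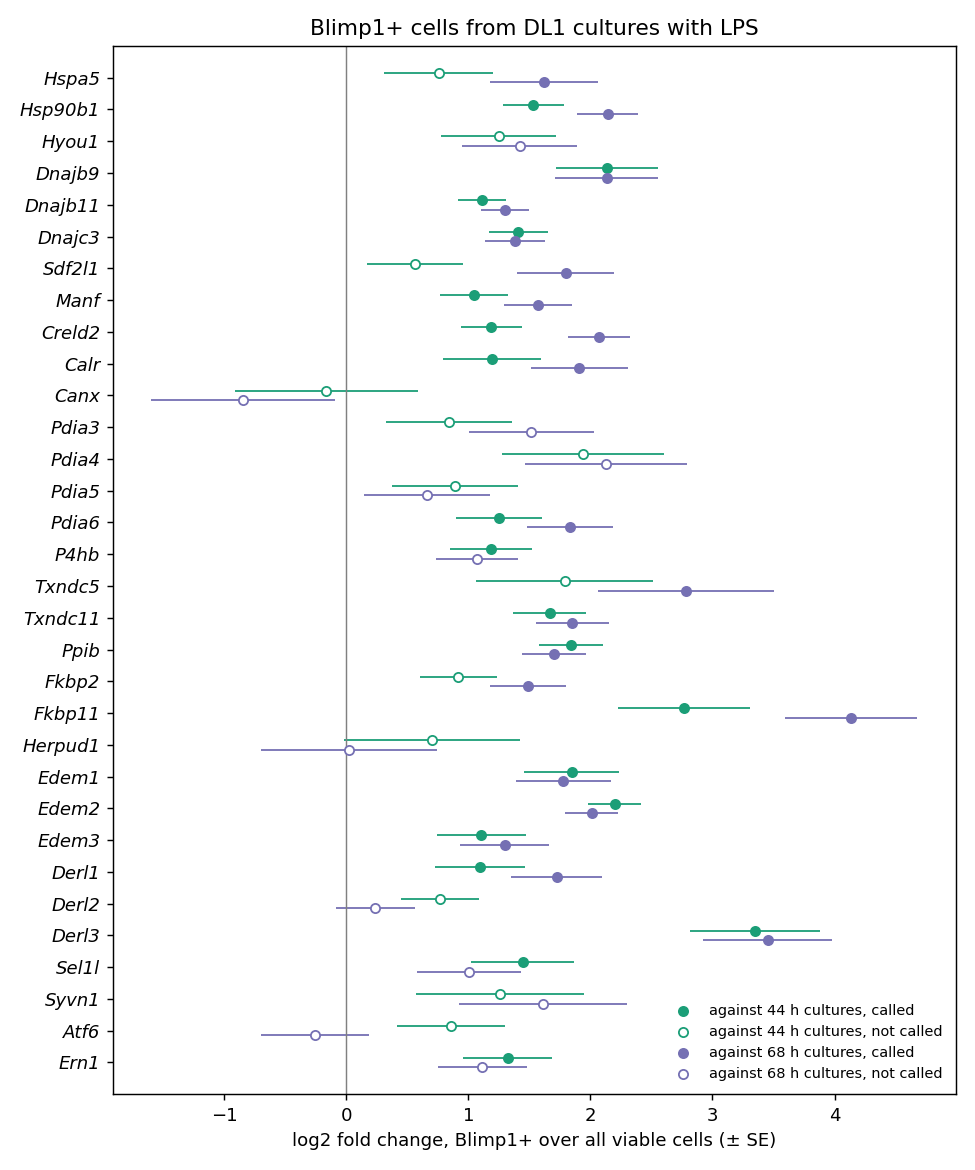
Log2 fold change of scaled TPM + 1 of each gene (horizontal axis, ± SE) in Blimp1+ cells over all viable cells of DL1 cultures with LPS at 44 h (green) and at 68 h (violet). Filled points have an adjusted p below 0.05 in limma, 19 against 44 h and 20 against 68 h, and Derl3 and Fkbp11 lie farthest to the right in both.

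Genes of the response outside the list were counted by branch. Of all genes 7.02% were called higher in Blimp1+ cells than in 44 h cultures and 5.03% lower. Of 20 genes of the XBP1 and ATF6 branch and of secretory control, 12 were higher and 0 lower, with a median log2 fold change of 1.14. Xbp1 was 1288 ± 82.6 scaled TPM in Blimp1+ cells and 142 ± 0.472 at 44 h (SD, n = 3 each), a log2 fold change of 3.17 ± 0.62 (adjusted p = 0.00038). Bhlha15 (Mist1), a regulator of secretory cell structure, was higher by 3.50 ± 0.26, Ero1lb, an oxidase that recharges disulfide isomerases, by 2.78 ± 0.50, and Mzb1, an immunoglobulin chaperone of the ER, by 2.75 ± 0.33. In the PERK and ATF4 branch 0 of 12 genes were higher and 2 lower, with a median of -0.40. Trib3 was 20.6, 17 and 21.0 in Blimp1+ cells, against 73.2, 70.7 and 68.9 in the cultures, and fell by 1.82 ± 0.54 on the log2 scale (adjusted p = 0.021), and Atf3 fell by 1.65 ± 0.30 (adjusted p = 0.00018). Atf4 (-0.39 ± 0.28) and Ddit3, which encodes CHOP (-0.32 ± 0.43), were not called. A test of the difference between the branches was not made. Stromal markers summed to 0.00948% to 0.0168% of TPM in Blimp1+ cells and to 0.00292% to 0.00613% in the 44 h cultures, and their part in the result was not tested.

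Against the 68 h cultures, 20 members were higher in Blimp1+ cells and 0 lower, against 2.84% of all genes (2.56% higher and 0.282% lower). The Blimp1+ libraries are the same as in the 44 h comparison, and again Blimp1 state, time in culture and the sort cannot be told apart. The median was 1.62 over the members and -0.01 over all genes. Hspa5 was called here, with 2421, 2407 and 2174 in Blimp1+ cells, against 1127, 988 and 392 at 68 h (1.62 ± 0.45, adjusted p = 0.035). The lowest of these values is that of replicate 3, the high-Actb library of its group. With the high-Actb libraries left out it was 1.14 (adjusted p = 0.0074), and 25 members were called, against 3.68% of all genes. With only that replicate 3 left out 13 were called, and the share of all genes there is not given. With TPM as deposited 7 were called (2.2% of all genes). The authors' log2 values and only the groups compared gave 12 each (1.61% and 1.18%). The largest differences among called members were those of Fkbp11 (4.13 ± 0.54), Derl3 (3.45 ± 0.53), Txndc5 (2.78 ± 0.72), Hsp90b1 (2.14 ± 0.25), Dnajb9 (2.13 ± 0.42) and Creld2 (2.07 ± 0.25). Pdia4, not called, differed by 2.13 ± 0.66 (adjusted p = 0.087). The 68 h values of Txndc5 were 131, 150 and 12.6, the last in the high-Actb library. Its difference was 1.65 without the high-Actb libraries, and its call held in 8 of 16 alternatives. Derl3 differed by 2.66 without them. Fkbp11 had 188, 171 and 184 in Blimp1+ cells and 11.6, 10.6 and 6.64 at 68 h, a ratio of means of 18.9. By role, 8 of 9 chaperones, 3 of 7 disulfide isomerases, all 3 prolyl isomerases, 5 of 9 degradation genes, 1 of 2 lectin chaperones and neither sensor were called. In the XBP1 and ATF6 branch 7 of 20 genes were higher and 0 lower, and in the PERK and ATF4 branch 1 of 12 was higher and 1 lower.

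Unstimulated DL1 and OP9 cells were compared at 68 h. The 2 groups differed in the Notch ligand and also in their stromal and B cell markers, given below. The ligand and this difference in content cannot be told apart here. In DL1 cells 2 members were higher and 11 lower than in OP9 cells, against 26.5% of all genes (8.84% higher and 17.6% lower). The median was -0.36 over the members and -0.19 over all genes, and with TPM as deposited these became 0.12 and 0.15, so the sign of the median depends on the scaling. With OP9 replicate 2 alone left out, 8 members were called, and the share of all genes there is not given. The largest decreases among called members were those of Pdia5 (-3.94 ± 0.52), Fkbp11 (-3.56 ± 0.54), P4hb (-2.44 ± 0.34), Manf (-1.70 ± 0.28), Ern1 (-1.67 ± 0.36) and Ppib (-1.60 ± 0.26), and these 6 were also called lower with TPM as deposited. Canx, not called, differed by -1.68 ± 0.75 (adjusted p = 0.097). Without the high-Actb library the differences of Pdia5, Fkbp11 and P4hb were -4.88, -4.37 and -3.08. Pdia5 was 0.830, 1.91 and 1.12 scaled TPM in DL1 cells and 80.4, 52.5 and 8.32 in OP9 cells. In no other group did a library of Pdia5 exceed 4.38. Fkbp11 had 8.05, 13.8 and 15.5 in DL1 cells, against 286, 252 and 49.6 in OP9 cells, and P4hb had 73.4, 103 and 83.8 in DL1 cells, against 869, 619 and 193 in OP9 cells. In all 3 genes the replicate 3 OP9 library, which is high in Actb, was the lowest of its group, yet it lay above every DL1 library. Of all genes 20% had every OP9 library above every DL1 library.

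Derl3 and Txndc11 went the other way. Derl3 was 3.27, 4.36 and 4.33 in DL1 cells, against 0.905, 0.690 and 0.314 in OP9 cells (1.62 ± 0.53, adjusted p = 0.021), and Txndc11 was higher by 0.85 ± 0.30 (adjusted p = 0.031). In the same OP9 libraries the stromal markers summed to 1.54%, 1.08% and 0.112% of TPM, against 0.0145%, 0.0352% and 0.0188% in the DL1 libraries, and B cell markers to 0.0377%, 0.200% and 0.179% in OP9, against 0.525%, 0.609% and 0.581% in DL1. None, 1 and none of the 12 stromal markers were at 0 in the OP9 libraries and 2, 2 and 1 in the DL1 libraries. The part of stromal RNA in these differences was not tested. Without the high-Actb libraries 19 members were lower and 4 higher, while of all genes 25% were lower and 16.8% higher. With only the groups compared in the fit 4 members were called, against 7.07% of all genes. Of 5 members that changed sign without the high-Actb library, Pdia4 and Herpud1 were then called. Pdia4, at 0.10 ± 0.66 with all libraries, was then -1.02 (adjusted p = 0.014). Herpud1 had 355, 248 and 204 in DL1 cells and 102, 133 and 1382 in OP9 cells, where the last is the high-Actb library. Its log2 fold change was -0.02 ± 0.72, and 1.16 (adjusted p = 0.0007) without that library.

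With LPS, members were called between the stromas at 20 h only. There 5 members were higher in DL1 cells than in OP9 cells and 0 lower, against 8.81% of all genes (4.4% higher and 4.41% lower), and all 3 DL1 libraries are high in Actb, so the stroma and that library state cannot be told apart. Manf was 996, 1365 and 1386 scaled TPM in DL1 cells and 261, 281 and 304 in OP9 cells (2.13 ± 0.28, adjusted p = 7.5e-06), and Creld2 had 425, 631 and 605 in DL1 cells, against 116, 125 and 128 in OP9 cells (2.14 ± 0.25, adjusted p = 1.7e-06). Both were separated by far more than the spread of either group. Edem1 (1.24 ± 0.39), Dnajc3 (0.94 ± 0.24) and Dnajb11 (0.69 ± 0.20) were the other 3. Replicate 3 of the OP9 group stood apart, with Sel1l at 327, against 50.1 and 48.9 in replicates 1 and 2, and Canx at 45.7, against 318 and 302. With DL1 replicate 2 or 3 left out 2 members were called, and 11 with OP9 replicate 2 left out. Shares of all genes in these fits are not given.

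At 44 h with LPS no member was called between DL1 and OP9 in limma, against 0.16% of all genes (0.141% higher and 0.0192% lower). An unadjusted p below 0.05 was found for 1 member and for 378 of all 15614 genes. The largest differences of the list were in Herpud1 and Creld2. Herpud1 was 382, 601 and 341 in DL1 cells and 226, 186 and 187 in OP9 cells (1.10 ± 0.72, adjusted p = 1), and without the high-Actb libraries, which are in neither group, it was called (adjusted p = 0.017), against 0.698% of all genes. Creld2 had 194, 325 and 190 in DL1 cells, against 159, 129 and 124 in OP9 cells (0.74 ± 0.25, adjusted p = 0.78). At 68 h no member was called in any setting tried, against 0.064% of all genes (0.0192% higher and 0.0448% lower) in limma. There 0 members had an unadjusted p below 0.05, against 513 of all 15614 genes. The log2 fold changes there ran from -0.74 (Txndc5) to 0.92 (Hyou1), with SEs of up to 0.75.

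With anti-IgM at 20 h, calls reached all roles but the prolyl isomerases. Of the members 11 were higher in DL1 than in OP9 cells and 1 lower, against 20.5% of all genes (10.2% higher and 10.3% lower), and all 3 OP9 libraries are high in Actb, so the stroma and that state cannot be told apart here either. Hspa5 had 1440, 1335 and 1448 scaled TPM in DL1 cells, against 245, 591 and 495 in OP9 cells (1.76 ± 0.45, adjusted p = 0.0087). Derl3 was 12.4, 9.81 and 11.2 in DL1 cells and 0.468, 0.451 and 2.97 in OP9 cells (2.57 ± 0.53, adjusted p = 0.0025). In both genes every DL1 library lay above every OP9 library, as in 18.1% of all genes. Txndc5 (2.13 ± 0.72), Syvn1 (2.02 ± 0.69), Pdia4 (2.02 ± 0.66) and Calr (1.87 ± 0.40) were also among the 6 largest increases, and Atf6 was the 1 decrease (-1.42 ± 0.44, adjusted p = 0.025). Canx and Herpud1, not called, had log2 fold changes of -1.98 ± 0.75 and -1.93 ± 0.72. On the authors' log2 values, 20 members were called higher, as were 16.2% of all genes. The median of all genes there was 0.40, against -0.01 on scaled TPM. Leaving out DL1 replicate 1, DL1 replicate 3 or OP9 replicate 1 gave 5 calls, and leaving out DL1 replicate 2 gave 6. Shares of all genes in these fits are not given.

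At 44 h with anti-IgM, where no library is high in Actb, no member was called in limma, against 0.897% of all genes. An unadjusted p below 0.05 was found for 4 members and for 1346 of all 15614 genes. Still, 17 members had all DL1 libraries above all OP9 libraries and 4 the reverse, against 16.6% and 17.3% of all genes. Sdf2l1 was 272, 270 and 280 in DL1 cells, against 153, 123 and 158 in OP9 cells (0.92 ± 0.39, adjusted p = 0.43). Manf had 295, 261 and 291 in DL1 cells and 135, 158 and 153 in OP9 cells (0.92 ± 0.28, adjusted p = 0.14). Without the high-Actb libraries both were called, with adjusted p of 3.6e-05 and 4.8e-05, as was Derl3 (1.59, adjusted p = 0.031), which had 20.9, 17.8 and 17.9 in DL1 cells and 7.21, 4.0 and 5.96 in OP9 cells. These 3 stand against 5.96% of all genes. With only the groups compared in the fit 12 members were called, against 16% of all genes.

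At 68 h with anti-IgM 2 members were higher in DL1 cells, against 1.73% of all genes (1.11% higher and 0.621% lower). Derl3 was 22.9, 27.9 and 25.0 in DL1 cells, against 5.46, 4.30 and 3.00 in OP9 cells (2.35 ± 0.53, adjusted p = 0.017). Sdf2l1 had 293, 266 and 260 in DL1 cells, against 124, 134 and 50.9 in OP9 cells (1.52 ± 0.39, adjusted p = 0.041). The lowest OP9 value of both is the high-Actb replicate 3. These differences were, without the high-Actb libraries, 2.16 and 1.07, and Manf, Calr and Ppib were called as well, with log2 fold changes of 1.08, 1.01 and 0.94, against 5.87% of all genes. Canx, not called, was -0.76 with all libraries and 0.41 without them. With any 1 DL1 library left out no member was called, and with OP9 replicate 3 alone left out 1 was. Shares of all genes in these fits are not given. The difference between the DL1 effect with LPS and that with anti-IgM was tested at 44 h. No member was called in limma, against 0.0833% of all genes. An unadjusted p below 0.05 was found for 1 member and for 741 of all 15614 genes. Without the high-Actb libraries Sdf2l1 (-0.67, adjusted p = 0.047), Manf (-0.70, adjusted p = 0.04) and Herpud1 (1.29, adjusted p = 0.045) passed, against 1.5% of all genes.

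Stimulation went with higher levels of part of the list in DL1 cells. At 68 h 6 members were higher with LPS than without stimulus and 0 lower, against 8.1% of all genes (5.54% higher and 2.56% lower). Derl3 was 30.7, 32.9 and 5.35 with LPS, against 3.27, 4.36 and 4.33 unstimulated, where the low LPS value is the high-Actb library (1.94 ± 0.53, adjusted p = 0.016, and 2.73 without it). Atf6 had 24.2, 18.2 and 75.2 with LPS, against 9.35, 8.20 and 8.55 unstimulated (1.78 ± 0.44, adjusted p = 0.0077, and 1.18 without the high-Actb library, which holds the top value). P4hb (1.37 ± 0.34), Sdf2l1 (1.36 ± 0.39), Manf (1.35 ± 0.28) and Creld2 (0.79 ± 0.25) were the others. In this comparison the median of all genes was 0.01 on scaled TPM and -0.26 with TPM as deposited. With TPM as deposited 2 members were called, against 6.21% of all genes.

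With anti-IgM, where neither DL1 group holds a high-Actb library, 7 members were higher than unstimulated and 0 lower, against 9.52% of all genes (6.07% higher and 3.46% lower). The unstimulated libraries are the same as for LPS. Derl3 had 22.9, 27.9 and 25.0 with anti-IgM and 3.27, 4.36 and 4.33 unstimulated (2.40 ± 0.53, adjusted p = 0.0021). Sdf2l1 was 293, 266 and 260 with anti-IgM, against 85.8, 75.9 and 103 unstimulated (1.63 ± 0.39, adjusted p = 0.0052). Calr had 232, 244 and 236 with anti-IgM, against 57.7, 77.9 and 107 unstimulated (1.58 ± 0.40, adjusted p = 0.0075). All 3 genes were separated without overlap, with anti-IgM above, as were 19.5% of all genes. P4hb (1.15 ± 0.34), Ppib (1.10 ± 0.26), Hsp90b1 (1.05 ± 0.25) and Manf (0.97 ± 0.28) completed the 7. With TPM as deposited 1 was called, against 9.28% of all genes. The median of all genes there was -0.28, against -0.07 on scaled TPM.

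On OP9 the unstimulated libraries carry the stromal markers given above, whose part was again not tested. LPS went with 3 members higher and 8 lower at 68 h, against 30.5% of all genes (11.4% higher and 19.1% lower). Members were thus called about as often as all genes. Derl3 was 14.0, 18.0 and 9.35 with LPS, against 0.905, 0.690 and 0.314 unstimulated (3.15 ± 0.53, adjusted p = 1.2e-05). Edem1 was higher by 1.63 ± 0.39 and Atf6 by 1.66 ± 0.44. Pdia5 (-4.46 ± 0.52), Fkbp11 (-3.54 ± 0.54), P4hb (-1.60 ± 0.34), Calr (-1.37 ± 0.40), Ern1 (-1.22 ± 0.36) and Edem3 (-1.11 ± 0.36) had the largest decreases among called members. Same-numbered libraries of these 2 groups deviated together. With the replicate number as a block within these groups, a fit added after those correlations were seen, Sdf2l1 (0.99, adjusted p = 0.0079), Pdia3 (-1.17, adjusted p = 0.04) and Derl2 (-0.81, adjusted p = 0.041) were called too. Without the high-Actb libraries 5 were higher and 12 lower, against 39.6% of all genes, Pdia5 differed by -5.25 and Ern1 was no longer called (-1.02, adjusted p = 0.053). With only the groups compared 4 members were called (10% of all genes), and with TPM as deposited 7 (26.8%).

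With anti-IgM on OP9 1 member was higher and 8 lower, against 23.9% of all genes (8.35% higher and 15.5% lower), with the same unstimulated libraries. Here too members were called about as often as all genes. Derl3 was the increase, at 5.46, 4.30 and 3.00 with anti-IgM, against 0.905, 0.690 and 0.314 unstimulated (1.67 ± 0.53, adjusted p = 0.017). Fkbp11 (-4.48 ± 0.54), Pdia5 (-4.13 ± 0.52), P4hb (-1.74 ± 0.34), Manf (-1.40 ± 0.28), Ppib (-1.15 ± 0.26) and Fkbp2 (-0.97 ± 0.31) had the largest decreases among called members. With the replicate block within these 2 groups, added in the same way, Pdia3 (-1.22, adjusted p = 0.013), Calr (-0.93, adjusted p = 0.04) and Atf6 (1.00, adjusted p = 0.04) were called in addition. The block over all groups gave 8 calls, against 24.6% of all genes. With only the groups compared in the fit 1 member was called (1.89% of all genes), and with TPM as deposited 6 (20.4%). Leaving out the high-Actb libraries gave 4 higher and 18 lower, against 39% of all genes. The differences of Fkbp11, Pdia5, P4hb and Ppib were then -5.46, -4.78, -2.38 and -1.84. Leaving out unstimulated OP9 replicate 3 alone gave 20 calls, and the share of all genes there is not given.

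LPS and anti-IgM were compared at 44 h, where no library is high in Actb. On OP9 4 chaperone partners were higher with LPS and 0 members lower, against 8.63% of all genes (4.9% higher and 3.73% lower). Sdf2l1 was 449, 449 and 442 with LPS, against 153, 123 and 158 with anti-IgM (1.63 ± 0.39, adjusted p = 0.0057). Manf had 402, 492 and 458 with LPS and 135, 158 and 153 with anti-IgM (1.59 ± 0.28, adjusted p = 0.00014). Hyou1 (1.45 ± 0.47) and Creld2 (1.02 ± 0.25) were the others, and Hspa5 had 1363, 1135 and 1333 with LPS, against 608, 596 and 610 with anti-IgM (1.07 ± 0.45, adjusted p = 0.15). All of these groups were disjoint with LPS above, as were those of 21.5% of all genes. On DL1 1 member was higher with LPS and 0 lower, against 2.91% of all genes (1.52% higher and 1.39% lower). It was Creld2, with 194, 325 and 190 with LPS and 89.8, 93.9 and 96.2 with anti-IgM (1.28 ± 0.25, adjusted p = 0.0011). With TPM as deposited 1 member was called on OP9 (5.52% of all genes) and 0 on DL1 (2.09%).

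Of the PERK and ATF4 genes outside the list, more were called than in the list. On DL1 9 of 12 were higher with LPS and 0 lower, with a median of 2.53, and on OP9 5 were higher and 1 lower. Of all genes 1.52% were higher and 1.39% lower on DL1, and 4.9% higher and 3.73% lower on OP9. Trib3 was 73.2, 70.7 and 68.9 with LPS on DL1, against 2.88, 1.13 and 2.11 with anti-IgM (4.61 ± 0.54, adjusted p = 4e-07), and Chac1 was 38.4, 49.8 and 41.4 with LPS and 1.27, 2.49 and 1.72 with anti-IgM (3.98 ± 0.40, adjusted p = 2e-08). Atf4 and Ddit3 were higher with LPS by 1.35 ± 0.28 and 1.61 ± 0.43. Of the XBP1 and ATF6 genes 2 of 20 were called on DL1 and 1 on OP9, and Xbp1 itself differed by -0.23 ± 0.62 and -0.05 ± 0.62.

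Over time few members passed. In OP9 cells with LPS, 44 h against 20 h, no member was called in limma, against 1.74% of all genes. An unadjusted p below 0.05 was found for 6 members and for 1868 of all 15614 genes. Leaving out replicate 2 or 3 at 20 h gave 2 and 1 calls, and the shares of all genes there are not given. From 44 to 68 h Calr fell by 1.37 ± 0.40 (adjusted p = 0.029), with 164, 83.4 and 148 scaled TPM at 20 h, 190, 185 and 241 at 44 h and 77.5, 116 and 53.2 at 68 h, and the last value is a high-Actb library. That 1 member called lower, with 0 higher, stands against 6.91% of all genes (4.02% lower and 2.89% higher). It was lost when any 44 h library, or replicate 1 or 3 at 68 h, was left out, and 1 member was higher and 5 lower without the high-Actb libraries, against 12.9% of all genes. In DL1 cells with anti-IgM, which hold no high-Actb library, no member was called in limma for either step. Of all genes 0.0576% were called at 44 h against 20 h and 0.179% at 68 h against 44 h. An unadjusted p below 0.05 was found for 4 and 1 members, against 732 and 1046 of all 15614 genes. Creld2 came nearest, at 197, 196 and 261 at 20 h, 89.8, 93.9 and 96.2 at 44 h and 102, 90.4 and 102 at 68 h (-1.20 ± 0.25, adjusted p = 0.05, for 44 h over 20 h). Hspa5 there had 1440, 1335 and 1448 at 20 h, 1014, 985 and 1062 at 44 h and 788, 778 and 818 at 68 h. Of all genes 10.3% fell without overlap from 20 to 44 h and 13.3% from 44 to 68 h. In Hspa5 the 3 times did not overlap either, with differences of -0.46 ± 0.45 and -0.36 ± 0.45 that were not called. Derl3 ran the other way, at 12.4, 9.81 and 11.2, then 20.9, 17.8 and 17.9, then 22.9, 27.9 and 25.0 (0.71 ± 0.53 and 0.40 ± 0.53, not called).

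Within the list, members differed sharply in how they stood in the high-Actb libraries. In the 4 groups where replicate 3 alone was high in Actb, 5 members (Herpud1, Canx, Atf6, Derl2 and Sel1l) were above both other replicates in all 4 groups. Another 14 were below both in all 4, namely Hspa5, Hsp90b1, Sdf2l1, Calr, Pdia3, Pdia4, Pdia5, Pdia6, Txndc5, Txndc11, Edem3, Derl1, Derl3 and Syvn1, and 13 were mixed. Of all genes tested 21.2% were above and 17.2% below in all 4. Canx had 250, 235 and 1876 scaled TPM in replicates 1, 2 and 3 of DL1 cells with LPS at 68 h, 265, 245 and 991 in OP9 cells with LPS and 160, 159 and 1833 in anti-IgM-treated OP9 cells. Pdia4 had 396, 336 and 74.4, then 295, 338 and 111, then 318, 303 and 40.1 in the same groups. These 2 genes separated the same libraries in opposite directions, and the high-Actb values carry the SD of each 68 h group that holds one.

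**Figure D4:**
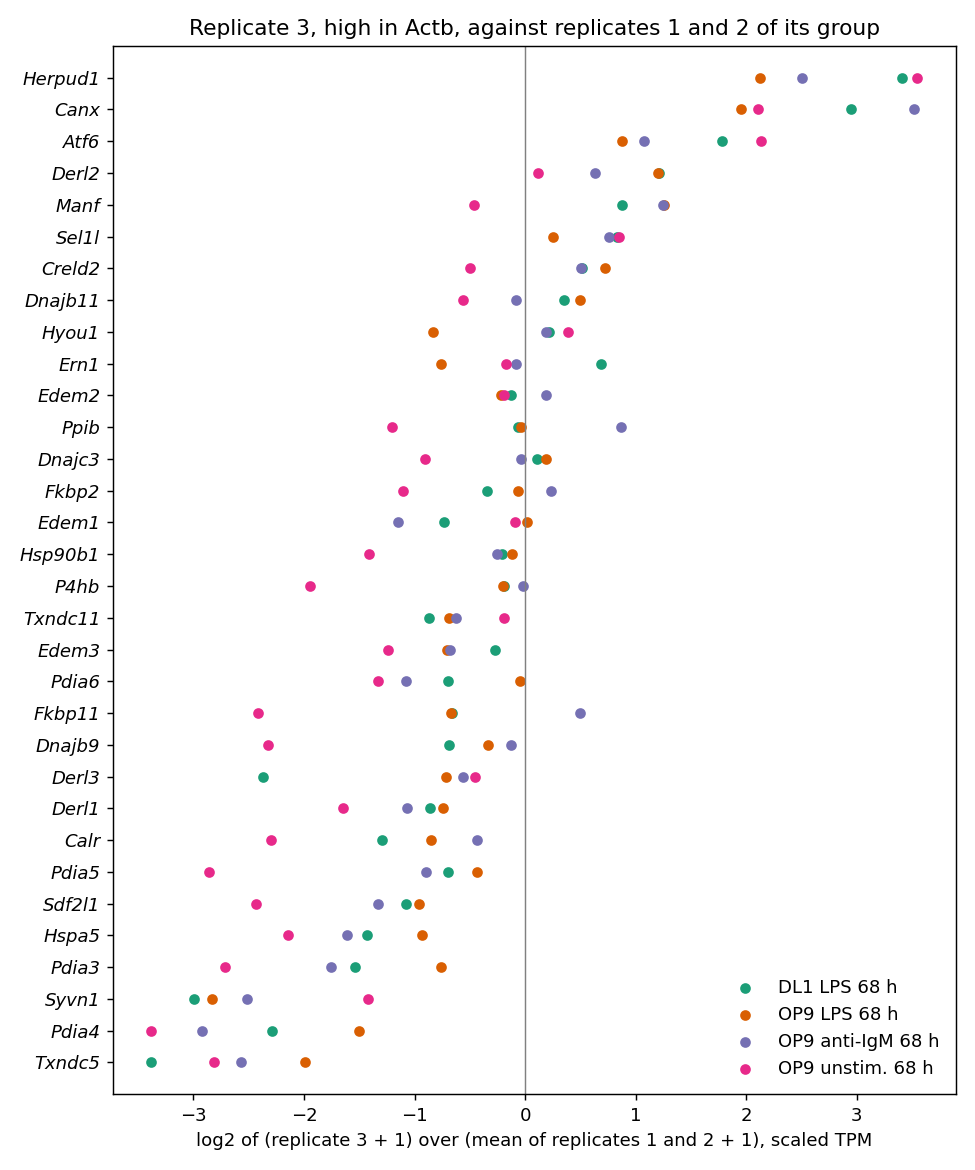
Log2 ratio of replicate 3, high in Actb, to the mean of replicates 1 and 2 of its group (horizontal axis, scaled TPM + 1) for the 32 genes, ordered by their mean ratio. Each colour is 1 of 4 groups at 68 h. Herpud1 and Canx lie right of 0 in all 4 groups, and Pdia4, Syvn1 and Txndc5 lie left of 0 in all 4.

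The members were last split by the promoter elements shown at the start, as a description. Against 44 h cultures, 7 of the 11 members with either form of the stress element were called higher, with a median log2 fold change of 1.20, and 10 of the 17 matched members without it, with a median of 1.44. Against 68 h cultures the counts were 8 of 11 and 10 of 17, with medians of 1.62 and 1.70. Derl3, Hsp90b1 and Creld2 carry the element and were higher in both comparisons. Canx, which carries it too, had log2 fold changes of -0.16 against 44 h and -0.85 against 68 h cultures. The second was 0.13 without the high-Actb library, which held 1876 scaled TPM, against 250 and 235 in the others of its group. Fkbp11, Edem2 and Ppib, without it in this window, were among the larger differences.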

How the data were processed

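Bulk RNA-seq of 45 libraries in 15 groups of 3 was analysed from 2 tables over 30317 symbols. Of tools, kallisto and limma, and of genome builds, GRCm38 and mm10 are listed in the submitters' processing notes, with neither version nor role. The authors deposited TPM, which summed to 92.1% to 96% of 1000000 per library over the listed symbols. The authors also deposited log2 values, which by their own spacing are log2 of estimated counts per 1000000 with an offset of 0.5. Depth (3.07 to 29.1 M estimated reads) was read from them, and it limits the precision of low genes such as Pdia5 and Ern1.

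TPM were divided by median-ratio size factors over 9462 genes (0.442 to 1.43), and log2(scaled TPM + 1) was fitted with limma 3.58.1 (R 4.3.3; trended, robust) as 15 group means over all 45 libraries. Fold changes are on this scale, which understates the change of low genes. Symbols needed at least 1 TPM in at least 3 libraries (15614 tested), and a call is a Benjamini-Hochberg adjusted p below 0.05 over all of them. Tables and figures were made with Python 3.11.15, pandas 2.3.3 and matplotlib 3.10.9. In simulated data on 15614 genes, 100 genes each were raised by a log2 of 1 and 2, with all others unchanged. Of these genes 15% and 60% were called for Blimp1+ against 44 h cultures. For DL1 against OP9 with LPS at 44 h these shares were 11% and 65%. The real Blimp1+ comparison at 44 h called 1881 genes, many more than were changed here. Its adjustment was therefore less strict, and the simulated shares do not carry over to it.

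The members and all gene lists were chosen with earlier results of these data known. Every member could be named. In the Blimp1+ comparison at 44 h all called members were named, and elsewhere up to 6 increases and 6 decreases of the called members, beside 10 members looked at throughout. Other members were named where a library or setting decided their value, which was seen in the data. Same-numbered libraries were correlated in their deviations from group means. All 3 correlations were over 0.1 in 3 comparisons only, and all 3 comparisons share a high-Actb replicate 3. These were DL1 against OP9 with LPS at 68 h (0.513 to 0.774) and, on OP9, LPS (0.300 to 0.558) and anti-IgM (0.331 to 0.613) against no stimulus. Alternatives were unscaled TPM as deposited, the authors' log2 values, quantile normalization, all genes unfiltered, a minimum of 5 TPM, a pseudocount of 0.1, leaving out 316 immunoglobulin genes, a replicate block, only the groups compared, no high-Actb libraries, and each library left out. The block within the groups compared was added after the correlations were seen.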

Additional observations from a re-analysis of the deposited data

Results flagged for a closer look

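For these members every DL1 library lay on one side of every OP9 library under 1 condition and on the other side under another condition. The difference between the conditions was not tested. At 20 h, where the DL1 libraries with LPS and the OP9 libraries with anti-IgM are high in Actb, the log2 fold change of DL1 over OP9 was 2.13 with LPS and -1.98 with anti-IgM for Canx. It was 1.52 with LPS and -1.93 with anti-IgM for Herpud1, and 0.90 with LPS and -0.56 with anti-IgM for Derl2. At 68 h Fkbp2 had -0.41 with LPS and 0.90 with anti-IgM. P4hb had 0.53 with LPS and 0.46 with anti-IgM, against -2.44 without stimulus. Hsp90b1 had 0.76 with anti-IgM, against -1.17 without stimulus, and Ppib had 0.645 with anti-IgM, against -1.60 without stimulus. The unstimulated OP9 libraries carry the stromal markers described with that comparison.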

How the results depend on the processing

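Counts of called members moved by more than 1.5 times as follows, and the cause was not tested. A percentage after a count or setting is the share of all genes called in that setting. Settings that test another set of genes have none. For Blimp1+ cells against 44 h (19 called), 6 were called with TPM as deposited (8.94%) and 12 with the authors' log2 values (7.47%). With only the groups compared 30 were called (33.7%), as were 30 without high-Actb libraries (24.5%). Against 68 h (20) the first 3 of these 4 settings gave 7 (2.2%), 12 (1.61%) and 12 (1.18%). For DL1 against OP9 without stimulus (13), the same 4 settings gave 8 (25.5%), 8 (18.8%), 4 (7.07%) and 23 (41.8%). With LPS at 20 h (5), quantile normalization gave 3 (6.33%) and only the groups compared 2 (1.29%). With LPS at 44 h (0) leaving out high-Actb libraries gave 1 (0.698%). With anti-IgM at 20 h (12) the authors' log2 values gave 20 (23%) and no filter 7. At 44 h (0) only the groups compared gave 12 (16%) and no high-Actb libraries 3 (5.96%). At 68 h (2) TPM as deposited (2.34%), quantile normalization (1.83%) and no filter gave 1 each. Only the groups compared gave 0 there (0%) and no high-Actb libraries 5 (5.87%). The interaction (0) gave 7 (8.01%) with only the groups compared and 3 (1.5%) without high-Actb libraries. On OP9, LPS against no stimulus (11) gave 7 (26.8%) with TPM as deposited, 6 (23.4%) with log2 values and 4 (10%) with only the groups compared. It gave 17 (39.6%) without high-Actb libraries. Anti-IgM on OP9 (9) gave 1 (1.89%) with only the groups compared and 22 (39%) without high-Actb libraries. On DL1, LPS (6) gave 2 (6.21%), 2 (4.13%) and 1 (2%) with TPM as deposited, log2 values and only the groups compared. Anti-IgM (7) gave 1 (9.28%), 1 (7.14%) and 12 (24.2%) in the same settings. Quantile normalization gave 3 each for LPS (8.56%) and anti-IgM (8.99%). LPS against anti-IgM on OP9 (4) gave 1 (5.52%) with TPM as deposited, 1 (4.98%) with log2 values and 12 (32%) with only the groups compared. Without high-Actb libraries it gave 8 (19.7%). On DL1 (1) these 4 settings gave 0 (2.09%), 0 (2.07%), 10 (15.6%) and 5 (8.7%), and the replicate block gave 2 (3.07%). Over time on OP9 with LPS, 44 h against 20 h (0) gave 5 (9.06%) without high-Actb libraries. There 68 h against 44 h (1) gave 0 with TPM as deposited (3.51%), quantile normalization (5.87%), log2 values (3.41%), no filter or only the groups compared (6.95%). It gave 2 (7.31%) with the replicate block and 6 (12.9%) without high-Actb libraries. On DL1 with anti-IgM, 44 h against 20 h (0) gave 1 (0.0769%) with quantile normalization and 1 with a filter at 5 TPM. It gave 4 (0.98%) with only the groups compared and 3 (1.04%) without high-Actb libraries. There 68 h against 44 h (0) gave 4 (7.44%) with only the groups compared.

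Leaving out single libraries gave 13 to 15 calls for Blimp1+ cells against 44 h and 13 to 20 against 68 h, the fewest without DL1 LPS 68 h replicate 3. These and the ranges below are counts of members only. The share of all genes called in each such fit is not given, so a change there cannot be read as particular to the members. For DL1 against OP9 the ranges were 8 to 16 without stimulus, 2 to 11 with LPS at 20 h, 0 to 0 with LPS at 44 and 68 h, 5 to 16, 0 to 0 and 0 to 2 with anti-IgM at 20, 44 and 68 h, and 0 to 0 for the interaction. With LPS at 20 h the fewest came without DL1 replicate 2 and the most without OP9 replicate 2, and with anti-IgM at 20 h the fewest without DL1 replicate 1. Against no stimulus they were 8 to 15 (LPS) and 7 to 20 (anti-IgM) on OP9, the most without unstimulated OP9 replicate 3, and 4 to 6 and 5 to 6 on DL1. LPS against anti-IgM gave 3 to 3 on OP9 and 1 to 1 on DL1. Over time the ranges were 0 to 2 and 0 to 2 on OP9 and 0 to 0 and 0 to 0 on DL1.

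Without high-Actb libraries 37 of 576 values changed sign. All are in comparisons that hold such a library, as they must be, since each log2 fold change uses only its own groups. Of these, 2 were called, both for DL1 against OP9 without stimulus, Pdia4 at -1.02 and Herpud1 at 1.16. The other 35 were called neither with nor without those libraries, among them Canx (0.13) and Atf6 (0.34) for Blimp1+ cells against 68 h and Canx (0.41) for DL1 against OP9 with anti-IgM at 68 h. For DL1 against OP9 at 20 h no such value exists, since a whole group is high in Actb. With the replicate block over all groups 20 (12.7% of all genes) and 21 (2.99%) members were called for Blimp1+ cells against 44 and 68 h. For DL1 against OP9 it gave 14 (27.5%) without stimulus. With LPS it gave 6 (10.1%), 0 (0.173%) and 0 (0.064%), and with anti-IgM 16 (23.3%), 0 (1.03%) and 2 (2.11%), at 20, 44 and 68 h. It gave 13 (31.5%) and 8 (24.6%) for LPS and anti-IgM against no stimulus on OP9, and 6 (8.72%) and 7 (10.2%) on DL1. Within the groups compared the block gave 0 (0.0897%) for DL1 against OP9 with LPS at 68 h. For LPS and anti-IgM against no stimulus on OP9 it gave 14 (33.1%) and 12 (27%). In most comparisons replicates share only a number, so a block there tests no known pairing.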

Other observations

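Between DL1 and OP9 cells with LPS at 44 h, where no member of the list was called, 2 of 12 genes of the PERK and ATF4 branch were higher in DL1 cells and 0 lower, with a median log2 fold change of 1.22. Of all genes 0.141% were called higher and 0.0192% lower. Of the 12, 11 had all DL1 libraries above all OP9 libraries, as did 8.29% of all genes. Of 20 genes of the XBP1 and ATF6 branch 0 were called in limma and 3 had an unadjusted p below 0.05, against 378 of all 15614 genes. Without stimulus, 6 genes of the PERK and ATF4 branch were lower in DL1 cells and 1 higher, against 17.6% and 8.84% of all genes, in the comparison whose OP9 libraries carry stromal markers.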
